A study of Mus musculus with 2 samples.

Results

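The genes described are 8 that mark white adipocytes or encode hormones made by them: Adipoq, Retn, Fabp4, Plin1, Cidec, Pparg, Cebpa and Adrb3. They were chosen by symbol as a list, with earlier results of these data already known. Whether their RNA came from white or brown adipocytes was not tested. All 8 were present among the 10543 genes with a single symbol in a table of poly(A) RNA from mouse thigh skeletal muscle. The mice were of the hybrid strain B6C3F1 and 26 months old. One group was on calorie restriction (CR), eating about 40% fewer calories for 25 months on a diet enriched to keep protein, vitamin and mineral intake per body weight near that of controls. The control group ate the control diet. Each group had 1 library, so differences could not be checked against replicates, no test across samples was possible and no p-value is given. The sources used here do not say whether mice were pooled within a library. Values are FPKM, fragment counts divided by transcript length and by the mapped fragments of the library, so levels of different genes are on a per-length scale. Library depth is unknown, so no counting interval is given. The label of skeletal muscle fitted the level of its 8 listed markers, the lowest at 13192 FPKM in the CR library and 1906 FPKM in the control library. Acta1, skeletal actin, stood at 354522 FPKM in the CR library and 372424 FPKM in the control library. It was the 1 muscle marker lower in the CR library, and the other 7 were higher there.

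White adipocytes store triglyceride in a single large lipid droplet and release fatty acids when catecholamines act on beta-adrenergic receptors. Differentiation runs through the transcription factors PPAR gamma (Pparg) and C/EBP alpha (Cebpa), which maintain each other's expression and switch on genes for lipid handling. Mature cells coat the droplet with perilipin 1 (Plin1) and CIDEC, carry fatty acids on FABP4 and secrete adiponectin (Adipoq) and, in mice, resistin (Retn). Skeletal muscle contains adipocytes between its fibres and bundles, and dissected thigh muscle can carry fat along the surrounding fascia. Fabp4 and Pparg are also expressed outside fat, in endothelial cells and macrophages.

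Since the members are linked by PPAR gamma and C/EBP factors in adipocyte biology, the DNA just before their transcription starts is shown. RefSeq windows of the mouse build GRCm38.p6 matched 6 of the 8 members by symbol, with 9 start sites in all. The 250 bases before the start are printed 5′ to 3′ on the gene's strand for 5 of them: the adipokines Adipoq and Retn, and the windows of Plin1, Cidec and Pparg that hold a C/EBP motif. Capitals mark any match, on either strand, to the C/EBP motif TTGCNNAA, the CCAAT box CCAAT, the TATA box TATAAA or the nuclear receptor element AGGTCA. The windows are chr16:23146286-23146535 on the plus strand for Adipoq, chr8:3655520-3655769 on the plus strand for Retn, chr7:79732777-79733026 on the minus strand for Plin1, chr6:113434765-113435014 on the minus strand for Cidec and chr6:115421816-115422065 on the plus strand for Pparg.
Adipoq: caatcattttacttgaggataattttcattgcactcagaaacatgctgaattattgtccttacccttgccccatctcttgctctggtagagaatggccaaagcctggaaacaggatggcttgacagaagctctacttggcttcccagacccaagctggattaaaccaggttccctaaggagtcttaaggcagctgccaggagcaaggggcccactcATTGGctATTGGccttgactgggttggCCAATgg
Retn: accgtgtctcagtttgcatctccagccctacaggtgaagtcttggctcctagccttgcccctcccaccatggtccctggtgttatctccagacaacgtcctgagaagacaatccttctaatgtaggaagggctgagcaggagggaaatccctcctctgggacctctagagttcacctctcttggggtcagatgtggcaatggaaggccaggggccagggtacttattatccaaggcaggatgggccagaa
Plin1: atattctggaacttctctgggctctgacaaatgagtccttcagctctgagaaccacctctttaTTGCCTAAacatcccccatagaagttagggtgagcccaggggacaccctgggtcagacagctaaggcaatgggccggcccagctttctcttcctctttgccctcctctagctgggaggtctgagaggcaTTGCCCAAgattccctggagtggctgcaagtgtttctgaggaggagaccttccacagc
Cidec: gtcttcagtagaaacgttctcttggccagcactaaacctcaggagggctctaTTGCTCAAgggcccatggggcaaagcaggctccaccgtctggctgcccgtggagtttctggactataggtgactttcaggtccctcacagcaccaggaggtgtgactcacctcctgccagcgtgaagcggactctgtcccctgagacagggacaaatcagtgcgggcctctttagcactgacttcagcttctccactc
Pparg: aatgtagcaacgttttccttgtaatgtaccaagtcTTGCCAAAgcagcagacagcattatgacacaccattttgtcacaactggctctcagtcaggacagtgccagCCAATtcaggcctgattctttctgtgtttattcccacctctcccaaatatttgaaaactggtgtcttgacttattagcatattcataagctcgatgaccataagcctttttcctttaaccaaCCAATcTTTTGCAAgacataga

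The C/EBP motif lay in 3 of the 9 member windows, against 9.56% of 32851 RefSeq windows of the same length. Plin1 had matches beginning at -187 and -58 from its start site, Pparg at -215 and -16, and Cidec at -198. The Pparg window shown belongs to the most downstream of its 3 start sites in the table. The CCAAT box occurred in 3 of the 9 windows, against 33.8% of all windows, and Adipoq held 3 copies of it, at -34, -27 and -7. The TATA box occurred in 2 of the 9, those of Cebpa and of another Pparg start, against 12.4% of all windows. The element AGGTCA occurred in 2 of the 9, both of Pparg, against 14.0%. Its direct repeat with a spacer of 1 base, AGGTCANAGGTCA, the letters of a PPAR response element, overlaps that element by construction and was in 0 of the 9 windows and in 11 of all 32851. The Retn window held none of these letters. The Adipoq window had no CG pair and a GC content of 48.8%, against a median of 6 CG pairs and 52.4% over all windows, whereas the Cebpa window had 22 CG pairs and 66.4% GC. Matches to letters are a description of these windows and no evidence of binding.

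All 8 white adipocyte genes stood higher by 2-fold or more in the CR library than in the control library. Retn had the highest fold of the 7 with a value above 0 in both libraries, at 23.1-fold, and Plin1 the lowest, at 2.12-fold. Adrb3 was listed at 0 in the control library and has no fold. Log2 ratios are those of FPKM + 1, CR over control, and a fold is the same ratio on the linear scale. The median log2 ratio was 2.40 over the 8 genes and 2.13 (a fold of 4.38) over the 7, beside a median of -0.03 over the 10533 genes tested, whose FPKM averaged at least 1 over the libraries. All 8 members passed that filter, Adrb3 through its CR value alone. Of all genes tested, 8.01% were higher by 2-fold or more in the CR library and 10.7% lower by 2-fold or more. Because the members were chosen with earlier results of these data known, setting them beside these shares is description only. Among genes averaging at least 100 FPKM, which 7 of the members reached, 4.95% were higher by 2-fold or more. Retn, Cidec, Pparg and Cebpa were below 100 FPKM in the control library and reached that mean only through their CR values. For them that share is not an independent comparison. In bulk tissue, more cells of a type and more RNA per cell cannot be told apart.

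**Figure D1:**
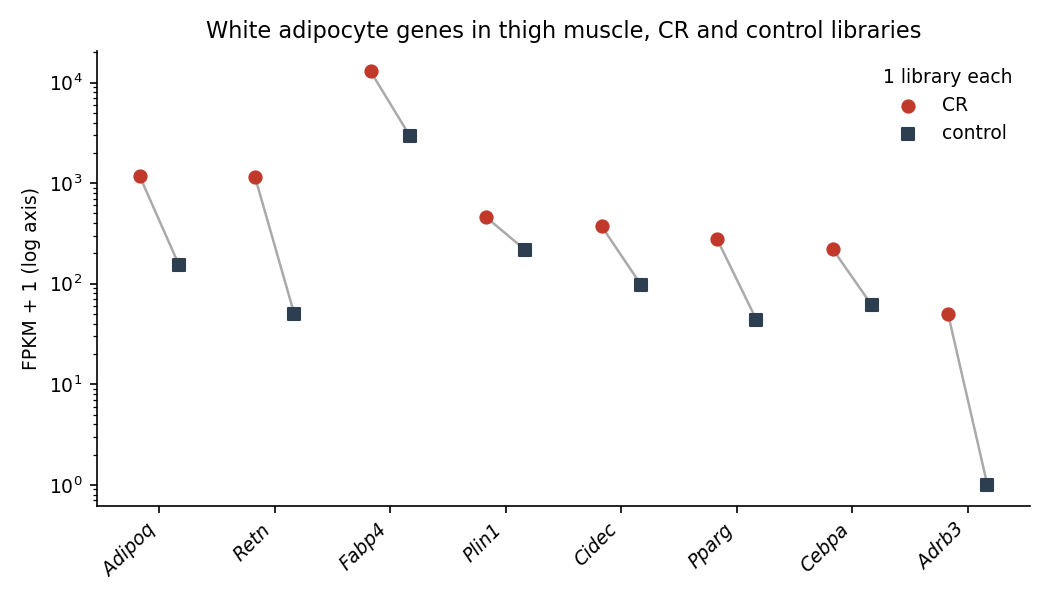
FPKM + 1 on a log axis for each of the 8 white adipocyte genes, with the CR library as circles on the left and the control library as squares on the right, 1 library each, joined by a line. The CR value lies above the control value for every gene, with the steepest finite difference at Retn (1148 against 48.6 FPKM), and Adrb3 is listed at 0 in the control library.

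Adipoq (mm9 chromosome 16, 23146588 to 23158041, plus strand) encodes adiponectin, a hormone made almost solely by adipocytes that raises insulin sensitivity. It was listed at 1178 FPKM in the CR library and 153 FPKM in the control library, a fold of 7.63 and a log2 ratio of 2.93. By level it ranked 746 of 10543 genes in the CR library and 6661 in the control library. Retn (chromosome 8, 3655733 to 3659981, plus strand) encodes resistin, an adipocyte hormone in mice that opposes insulin action. It stood at 1148 FPKM in the CR library and 48.6 FPKM in the control library, a log2 ratio of 4.53. Its level rank was 771 in the CR library and 9157 in the control library, and its log2 ratio ranked 8 among the 9846 genes above 0 in both libraries. Retn and Adipoq thus lay close together in the CR library and apart in the control library, where Retn had 0.317 of the Adipoq level. No other locus of the table overlapped Adipoq or Retn.

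Among 9 other measured secreted proteins of fat, of 12 listed, 4 were higher by 2-fold or more in the CR library and 5 were within 2-fold, and the median log2 ratio was 0.96. Beside this count and those of the lists below, 8.01% of all genes tested were higher by 2-fold or more and 10.7% lower. Cfd, the complement factor adipsin, stood at 2275 FPKM in the CR library and 389 FPKM in the control library, a fold of 5.84. Rbp4, the retinol carrier, stood at 220.7 FPKM in the CR library and 17.6 FPKM in the control library, a fold of 11.9. Angptl4, a secreted inhibitor of lipoprotein lipase, and Lpl, lipoprotein lipase itself, had smaller folds of 2.14 and 2.04. Lep, which encodes leptin, the hormone that reports fat stores to the brain, was within 2-fold at 102 FPKM in the CR library and 70.6 FPKM in the control library. The log2 ratio of Lep, 0.53, was thus below that of every member. Retnla, a paralog of Retn found in macrophages as well as fat, stood at 236 FPKM in the CR library and 121 FPKM in the control library, a fold of 1.95.

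The receptors through which these hormones and insulin act were within 2-fold at all 5 measured genes of 6 listed. Their median log2 ratio was -0.15. Adipor1, an adiponectin receptor, stood at 1613 FPKM in the CR library and 1786 FPKM in the control library. Insr, the insulin receptor, stood at 481 FPKM in the CR library and 647 FPKM in the control library, and Cdh13, T-cadherin, which binds adiponectin, at 336 FPKM in the CR library and 450.03 FPKM in the control library. Cmklr1, the chemerin receptor, was the 1 receptor with a ratio above 0, at 133 FPKM in the CR library and 97.0 FPKM in the control library.

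Fabp4 (chromosome 3, 10204055 to 10208679, minus strand), the cytosolic fatty acid carrier of adipocytes, was the most abundant member in each library. It stood at 12924 FPKM in the CR library and 2948 FPKM in the control library, a fold of 4.38 and a log2 ratio of 2.13. It ranked 48 by level in the CR library and 243 in the control library, and made up 77.7% of the members' summed FPKM in the CR library and 82.7% in the control library. The sum over the other 7 was 3702 FPKM in the CR library and 618 FPKM in the control library, a ratio of 5.99. There were 2 unnamed plus-strand loci inside the Fabp4 interval. One stood at 402 FPKM in the CR library and 221 FPKM in the control library, and the other at 55.6 FPKM in the CR library and 14.5 FPKM in the control library. The described kit keeps no record of strand, so reads cannot be assigned between Fabp4 and these loci and the Fabp4 value is uncertain to that extent.

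The paralogs of Fabp4 differed in ratio. Fabp5, a fatty acid carrier of skin, macrophages and fat, stood at 948 FPKM in the CR library and 104 FPKM in the control library, a fold of 9.0. Fabp3, the carrier of heart and skeletal muscle, stood at 14719 FPKM in the CR library and 10993 FPKM in the control library, a fold of 1.34. On the per-length scale Fabp4 lay near the Fabp3 level in the CR library and well below it in the control library. These were the 2 measured genes of 7 other fatty acid binding proteins listed.

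Plin1 (chromosome 7, 86865154 to 86877778, minus strand), the perilipin that coats adipocyte droplets and gates lipolysis, stood at 458 FPKM in the CR library and 215 FPKM in the control library. Its log2 ratio of 1.08 was the lowest of the members, just past 2-fold, and ranked 505 of the 9846 genes above 0 in both libraries. It overlapped 3 unnamed loci. They stood at 11.8 FPKM in the CR library and 35.7 FPKM in the control library, at 160 FPKM in the CR library and 87.6 FPKM in the control library, and at 0 in both. Reads shared with them could alter its value. Cidec (chromosome 6, 113374451 to 113385749, minus strand), which helps droplets fuse into a single one, stood at 372 FPKM in the CR library and 97.2 FPKM in the control library, a fold of 3.80. Its close relative Cidea, known from brown fat, stood at 246 FPKM in the CR library and 38.5 FPKM in the control library, a fold of 6.25.

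The other perilipins did not share one direction. Plin2, the perilipin found on droplets of most cells, stood at 1254 FPKM in the CR library and 480.1 FPKM in the control library, a fold of 2.61. Plin3 was within 2-fold, at 254 FPKM in the CR library and 184 FPKM in the control library. Plin4, which fat and muscle express, stood at 702 FPKM in the CR library and 1164 FPKM in the control library, and Plin5, the perilipin of oxidative tissues, at 113 FPKM in the CR library and 169 FPKM in the control library. Plin4 and Plin5 were thus lower in the CR library, within 2-fold. Over the 10 measured genes of 11 listed for lipid droplets and lipolysis, 4 were higher by 2-fold or more in the CR library, 0 lower by 2-fold or more and 6 within 2-fold, and the median log2 ratio was 0.43. The 4 were Plin2, Cidea, Lipe (hormone-sensitive lipase; 575 FPKM in the CR library and 226 FPKM in the control library) and G0s2, an inhibitor of the lipase ATGL (270 FPKM in the CR library and 127 FPKM in the control library). Pnpla2, which encodes ATGL and was the most abundant of the list, stood at 2856 FPKM in the CR library and 3311 FPKM in the control library.

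Pparg (chromosome 6, 115311239 to 115440419, plus strand), the nuclear receptor that drives adipocyte differentiation, stood at 277 FPKM in the CR library and 42.9 FPKM in the control library, a fold of 6.32 and a log2 ratio of 2.66. The value covers the whole locus, and the separate isoforms of Pparg are not told apart by it. Cebpa (chromosome 7, 35904312 to 35906951, plus strand), its partner factor, stood at 220.3 FPKM in the CR library and 60.0 FPKM in the control library, a fold of 3.63. In the control library Cebpa was above Pparg, and in the CR library Pparg was above Cebpa. No other locus overlapped either gene.

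The paralogs of these factors had smaller ratios than the members. Ppara, the PPAR of fatty acid oxidation, stood at 185 FPKM in the CR library and 88.5 FPKM in the control library, a fold of 2.08. Ppard stood at 339.7 FPKM in the CR library and 173 FPKM in the control library, a fold of 1.95. Cebpd, an early factor of adipogenesis that glucocorticoids induce, stood in the other direction, at 47.2 FPKM in the CR library and 90.7 FPKM in the control library, 1.90-fold lower in the CR library. Cebpg stood at 203 FPKM in the CR library and 162 FPKM in the control library. Of the 14 measured genes among 15 other adipogenic factors and cofactors listed, 1, Ppara, was higher by 2-fold or more, 0 were lower by 2-fold or more and 13 were within 2-fold, and the median log2 ratio was 0.42. Lpin1, a phosphatidate phosphatase and the most abundant gene of the list by mean FPKM, stood at 929 FPKM in the CR library and 1290.3 FPKM in the control library. Of 8 factors listed that restrain adipogenesis, 5 were measured. Sfrp1, a secreted Wnt antagonist that is known to favour adipogenesis and so runs against the list's name, was listed at 0 in the CR library and 35.3 FPKM in the control library, and the other 4 were within 2-fold, among them Foxo1 at 298 FPKM in the CR library and 373 FPKM in the control library, Ddit3 at 68.3 FPKM in the CR library and 41.5 FPKM in the control library, and Gata2 at 102 FPKM in the CR library and 75.9 FPKM in the control library.

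**Figure D2:**
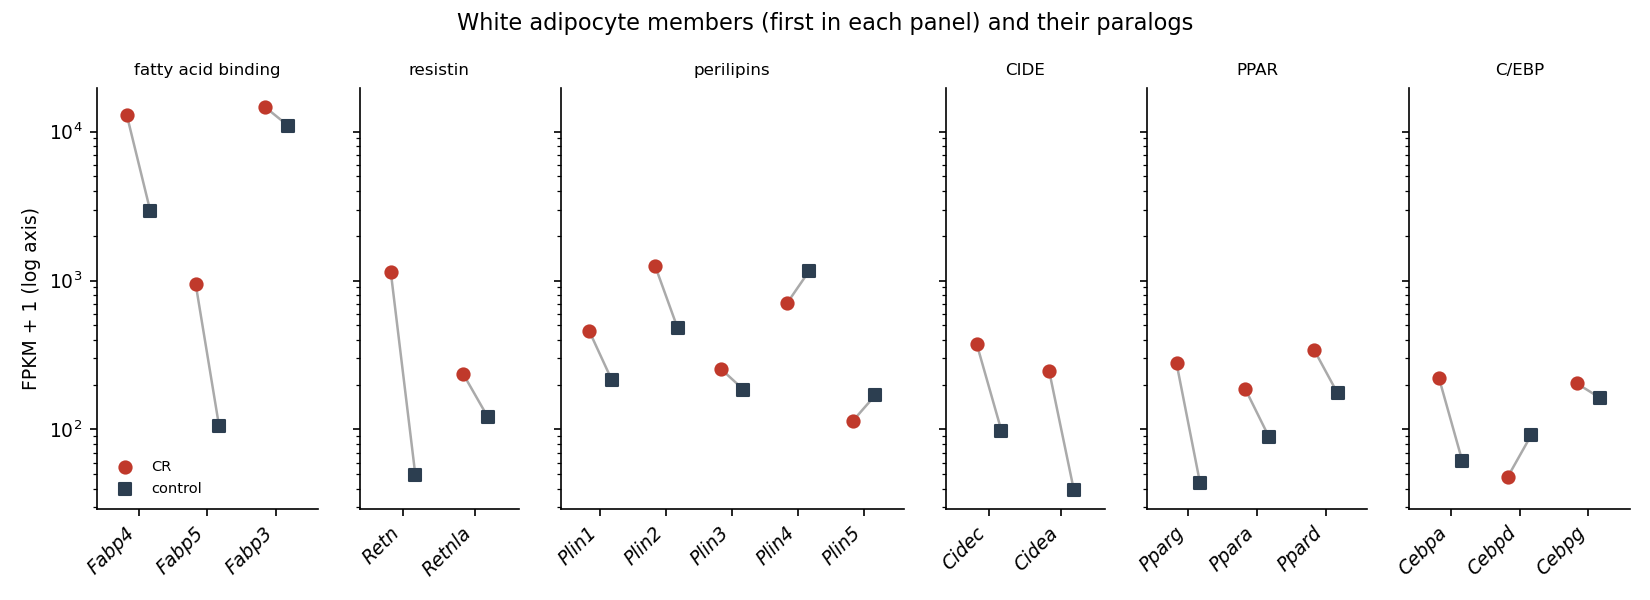
FPKM + 1 on a log axis for 6 members (first in each panel) and their measured paralogs, CR library as circles on the left and control library as squares on the right, 1 library each. Plin4, Plin5 and Cebpd lie lower in the CR library, while Fabp4, Retn, Plin1, Cidec, Pparg and Cebpa lie higher.

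Adrb3 (chromosome 8, 28336248 to 28340060, minus strand), the beta-adrenergic receptor largely restricted to fat in rodents, was listed at 48.9 FPKM in the CR library and 0 in the control library. A value of 0 in this table can be a failed estimate, so the size of the difference is not known. Its CR level ranked 9055 of 10543 genes, the lowest of the members.

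Among genes of adrenergic signalling to lipolysis, 6 are given by their own values. Prkar2b, the regulatory subunit of protein kinase A that predominates in fat, stood at 921 FPKM in the CR library and 26.9 FPKM in the control library, a fold of 33.0. Gnai1, an inhibitory G protein subunit, stood at 240.0 FPKM in the CR library and 38.2 FPKM in the control library. Pde3b, the phosphodiesterase through which insulin restrains lipolysis, was listed at 152 FPKM in the CR library and 0 in the control library, and the adenylate cyclase Adcy3 at 26.7 FPKM in the CR library and 0 in the control library. Prkaca, a catalytic subunit of protein kinase A, was within 2-fold at 820.3 FPKM in the CR library and 760.5 FPKM in the control library. Gnas, which encodes the stimulatory G protein subunit, stood at 6621 FPKM in the CR library and 8048 FPKM in the control library, also within 2-fold.

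Among 17 measured genes of 20 other adipocyte markers and PPAR gamma targets listed, 8 were higher by 2-fold or more in the CR library, 0 lower by 2-fold or more and 9 within 2-fold, and the median log2 ratio was 0.94. Adig, adipogenin, a small protein of adipocytes, stood at 539 FPKM in the CR library and 70.0 FPKM in the control library, a fold of 7.60, close to that of Adipoq. Lgals12, a galectin found on adipocyte droplets, stood at 93.8 FPKM in the CR library and 9.64 FPKM in the control library, a fold of 8.91. Slc1a3, a glutamate transporter, was listed at 77.4 FPKM in the CR library and 0 in the control library. Gpd1, the glycerol phosphate dehydrogenase and the most abundant gene of this list by mean FPKM, was within 2-fold at 3301 FPKM in the CR library and 2486 FPKM in the control library. Muscle fibres express several genes of this list as well: Slc2a4, the insulin-responsive glucose transporter, stood at 2567 FPKM in the CR library and 2506 FPKM in the control library. Aqp7, the glycerol channel of adipocytes, was also within 2-fold, at 158 FPKM in the CR library and 145 FPKM in the control library.

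**Figure D3:**
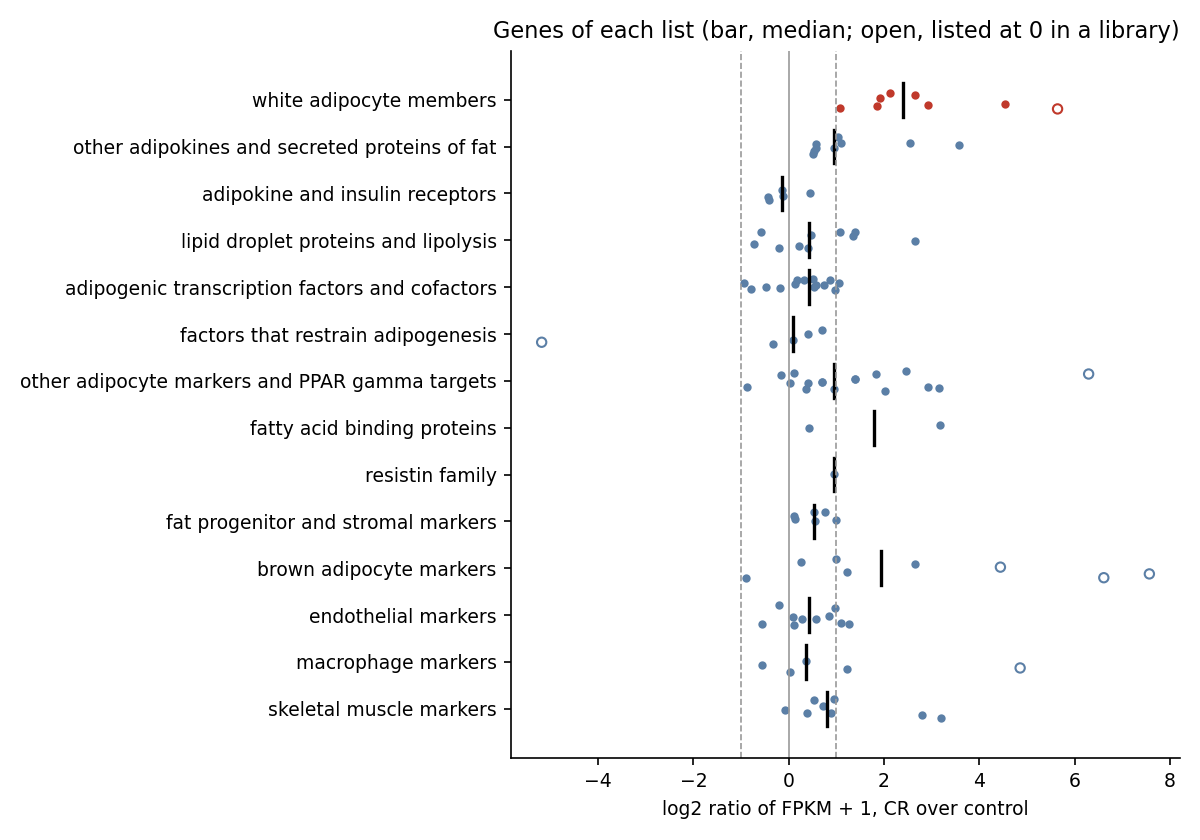
Log2 ratio of FPKM + 1, CR over control, for the genes of each list described by counts, with a black bar at the list's median, open circles for genes listed at 0 in a library and dashed lines at 2-fold. The 8 white adipocyte genes lie between 1.08 and 5.64, while the 5 adipokine and insulin receptors lie between -0.43 and 0.45.

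The genes whose pair of values lay nearest to that of Adipoq, by Euclidean distance over log2(FPKM + 1) in the 2 libraries, were Gm12070, A530098C11Rik and G6pdx, with distances of 0.42, 0.44 and 0.57. G6pdx, the enzyme that makes NADPH at the entry of the pentose phosphate pathway, stood at 876 FPKM in the CR library and 118 FPKM in the control library, a fold of 7.37. Gm12070 stood at 1140.4 FPKM in the CR library and 205 FPKM in the control library, and A530098C11Rik at 936 FPKM in the CR library and 189 FPKM in the control library. With 2 libraries this likeness means that the pair of levels is similar and nothing more.

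The members did not differ between the libraries by a common factor. Relative to Adipoq, Fabp4 stood at 10.97 times its level in the CR library and 19.2 times in the control library. Plin1 stood at 0.388 of the Adipoq level in the CR library and 1.40 times it in the control library. Pparg had more similar ratios to Adipoq, at 0.235 of its level in the CR library and 0.280 in the control library. By level the order in the CR library was Fabp4, Adipoq, Retn, Plin1, Cidec, Pparg, Cebpa and Adrb3. In the control library it was Fabp4, Plin1, Adipoq, Cidec, Cebpa, Retn, Pparg and Adrb3. Without replicates, whether neighbours in either order differ beyond their spread could not be assessed.

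**Figure D4:**
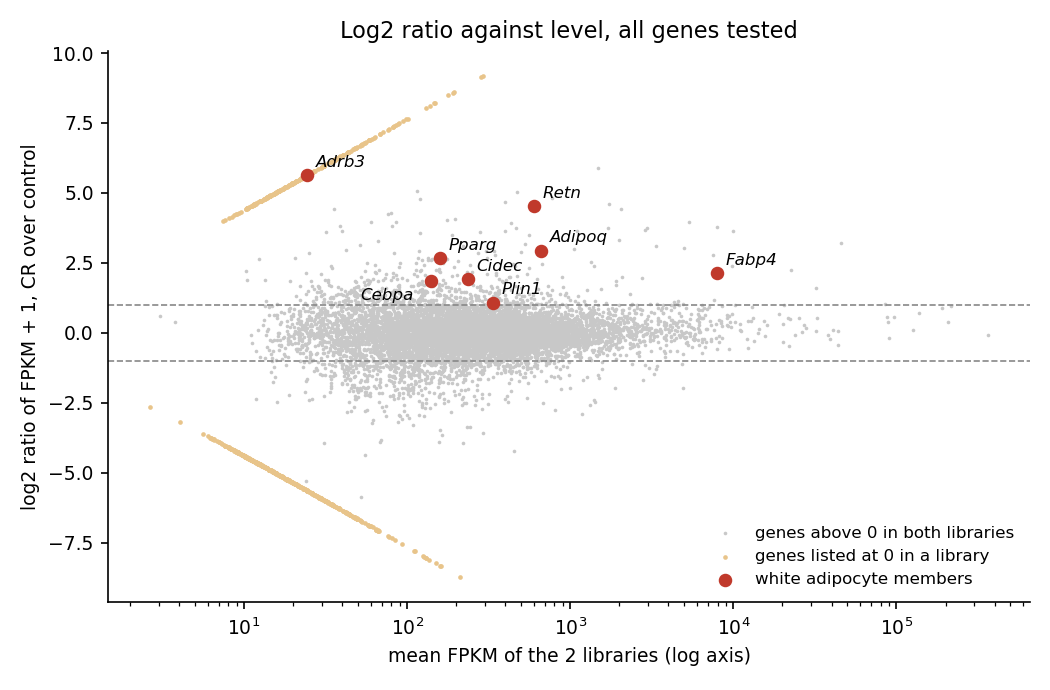
Log2 ratio of FPKM + 1, CR over control, against the mean FPKM of the 2 libraries on a log axis, for the 10533 genes tested, with dashed lines at 2-fold. The white adipocyte genes lie at or above the upper line from a mean of 24.5 FPKM (Adrb3, among genes listed at 0 in a library) to 7936 FPKM (Fabp4).

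Markers of other cell types had ratios of differing size and direction, and their part in the members' differences was not tested. Of 8 measured brown adipocyte markers among 9 listed, 6 were higher by 2-fold or more in the CR library, beside 8.01% of all genes tested. Ucp1, Otop1 and Prdm16 were listed at 189, 96.8 and 20.7 FPKM in the CR library and at 0 in the control library. They passed the filter through their CR values alone, and a 0 can be a failed estimate. Cidea, also counted in the lipid droplet list, was another of the 6. Cox8b only just passed 2-fold, at a fold of 2.004. Ppargc1a was the 1 brown marker lower in the CR library, at 488 FPKM against 902 FPKM in the control library, 1.85-fold lower. The brown list summed to 11254 FPKM in the CR library and 8266 FPKM in the control library, most of it Cox7a1, a muscle-expressed respiratory subunit. Its median log2 ratio was 1.94 over the 8 genes and 1.003 over the 5 above 0 in both libraries, and 0.63 over those averaging at least 100 FPKM. All 6 measured fat progenitor and stromal markers, of 9 listed, were within 2-fold with ratios above 0, and they summed to 1382 FPKM in the CR library and 957 FPKM in the control library. Cd34, a surface marker of progenitors and endothelium, came nearest to 2-fold in that list, at 389.5 FPKM in the CR library and 196 FPKM in the control library. Thy1 stood at 75.4 FPKM in the CR library and 43.9 FPKM in the control library, and Col15a1, a basement membrane collagen at 274 FPKM in the CR library and 187 FPKM in the control library.

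Endothelial cells and macrophages can express Fabp4 and Pparg, and their part in the members' differences was not tested. Of 10 endothelial markers, Emcn and Tek were higher by 2-fold or more in the CR library and 8 were within 2-fold. The endothelial median log2 ratio was 0.43. Emcn stood at 486 FPKM in the CR library and 200.4 FPKM in the control library, Tek at 338 FPKM in the CR library and 157 FPKM in the control library, and Kdr, a receptor for VEGF, at 336 FPKM in the CR library and 170.5 FPKM in the control library. Egfl7, the most abundant of them by mean FPKM, stood at 641 FPKM in the CR library and 432 FPKM in the control library. The list summed to 3619 FPKM in the CR library and 2641 FPKM in the control library, a ratio of 1.37. The endothelial markers Pecam1 and Cdh5 stood at 495 and 328 FPKM in the CR library and 405 and 305 FPKM in the control library. Tie1 and Esam were the 2 endothelial markers with ratios below 0. They stood at 107 and 216 FPKM in the CR library and 158 and 250 FPKM in the control library. Of 5 measured macrophage markers among 10 listed, 2 were higher by 2-fold or more, Mrc1 (77.8 FPKM in the CR library and 32.5 FPKM in the control library) and Cd14 (28.0 FPKM in the CR library and 0 in the control library). The macrophage list summed to 401 FPKM in the CR library and 336 FPKM in the control library. Its median log2 ratio was 0.35 over the 5 genes and 0.19 over the 4 above 0 in both libraries. Cd163, its most abundant gene, stood at 127 FPKM in the CR library and 125 FPKM in the control library. The 1 macrophage marker with a ratio below 0 was Cd68, at 66.9 FPKM in the CR library and 99.7 FPKM in the control library.

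Muscle markers were not uniform either. Of 8 skeletal muscle markers, 7 had ratios above 0 and 1, Acta1, a ratio below 0. Their median log2 ratio was 0.81, and the ratio of their summed FPKM, CR over control, was 1.48. Of the 8, 6 were within 2-fold, among them the fast light chain Mylpf at 283395 FPKM in the CR library and 146936 FPKM in the control library. The slow-fibre genes Myh7 (81978 FPKM in the CR library and 8953 FPKM in the control library) and Tnnt1 (13192 FPKM in the CR library and 1906 FPKM in the control library) were higher by 2-fold or more in the CR library. Their ratios, 3.19 and 2.79 on the log2 scale, lay in the range of the adipocyte members. The library with more adipocyte transcript thus also had more transcript of these slow-fibre genes, and whether the thigh muscles were sampled alike in the groups cannot be told apart from diet with 1 library each.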

How the data were processed

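Libraries were 76 bp paired-end, 1 per diet group, per the labels' protocols. TopHat 1.2.0, Cufflinks, Cuffdiff and the build mm9 are named in the submitters' processing notes; the sources used here give neither options nor annotation nor filters. The authors deposited FPKM for each locus, per the file headers. The lowest deposited value is exactly 1, and among control values between 1 and 2, 98 of 101 have over 6 digits, against 0 of 77 between 2 and 3, so 1 was taken to have been added and was subtracted. FPKM summed to 13608800 in the CR library and 12758500 in the control library, an unexplained high scale, so values are not set against other data.

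Of 23672 loci, those with a single symbol were summed per symbol (10543 genes). Ratios are log2((CR FPKM + 1)/(control FPKM + 1)) with no further scaling, over 10533 genes averaging at least 1 FPKM; the pseudocount understates differences of low genes. No fold is given where a library is listed at 0. The ratio and count steps were tested on simulated data, with changes well past 2-fold and little noise in genes averaging at least 100 FPKM. That checked the arithmetic alone and did not cover genes low or at 0 in a library. Python 3.11.15, numpy 2.4.6, pandas 2.3.3 and matplotlib 3.10.9 were used. Besides the members, the text names from each list its most abundant gene and as many as 3 with the largest absolute ratio. It also names paralogs of members and the 3 genes nearest to Adipoq. Lep, G0s2, Gnai1, Prkaca, Slc2a4, Aqp7, Cox8b, Ppargc1a, Pecam1, Cdh5, Tie1 and Esam were named after their values were seen. A gene of the adrenergic list is not reported here, and that list has no counts or median. The members and lists were chosen with earlier results of these data known. Alternatives were other pseudocounts, filters and scalings, the largest locus of a symbol, leaving out genes at 0, and no offset subtraction.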

Additional observations from a re-analysis of the deposited data

How the results depend on the processing

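With 1 library per group and no replicate check, these alternatives bear on the arithmetic alone. Over 12 settings each, the log2 ratio of Adipoq lay between 2.86 and 2.96 and that of Retn between 4.43 and 4.56. The pseudocounts, 0.1 to 5 FPKM, were small beside the levels of both genes, so narrow ranges were largely set in advance. Plin1, the member nearest to 2-fold, lay between 1.01 and 1.11 in the 11 settings that kept it. Adrb3, listed at 0 in the control library, ran between 3.43 and 8.94 with the pseudocount and the offset. The number of members higher by 2-fold or more was 8 in the main setting. With genes averaging at least 300 FPKM kept, a filter chosen after seeing the data, 4 members remained, all higher by 2-fold or more. Of these, Adipoq, Retn and Plin1 were below 300 FPKM in the control library and passed only through their CR values. Their outcome was thus partly fixed by the filter, and the share of all genes past 2-fold was not computed for it. Under that filter the number of genes of the other lists higher by 2-fold or more was 15 of 49 tested, with no share of all genes beside it. List genes such as Adig and Fabp5, at 70.0 and 104 FPKM in the control library, also passed it only through their CR values. In the main setting the number was 29 of 98, beside 8.01% of all genes tested. The adrenergic list is left out of these counts. Leaving out Fabp4 and Plin1 for their overlapping loci, also chosen after seeing the data, gave a member median of 2.80, against 2.40. Among medians of the other lists given here, that of the brown adipocyte list moved by over 1.5-fold: it was 1.94 in the main setting, 1.003 without genes listed at 0, 0.63 for genes averaging at least 100 FPKM and 0.27 for those averaging at least 300 FPKM. No paired analysis was possible because each group has 1 library and the labels give no replicate numbers. Depth is unknown, so no counting error could be set.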
